A study of Oryza sativa with 23 samples.

Results

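The near isogenic line 481-B was compared with its recurrent parent Vandana in roots, over drought and well-watered (WW) plants together. Of the 23 arrays of the series, 11 entered the comparison. By their labels 6 are of 481-B (3 drought, 3 WW) and 6 of Vandana (3 drought, 3 WW), and of the latter WW replicate 2 was left out for its expression values, which leaves 5. Vandana is an aus rice cultivar. 481-B is a BC2F3:4 line of Vandana that carries qDTY12.1, a locus for grain yield under drought, from the indica donor Way Rarem, which was not on any array, and no genotype of either line was used here. Plants of both lines were grown in the same trial and roots were collected at 25 days after sowing. Drought plants had their soil dried down from 75% of field capacity, and WW plants of both lines were held at field capacity. The other genotypes of the series, IR64 and the line OsNAM_Event_2, which overexpresses OsNAM12.1 in IR64, serve below as reference levels. Their arrays also entered the normalization and some alternative fits. WW plants of these genotypes were held above field capacity, unlike those of 481-B and Vandana. The sources do not state how many plants were pooled for an array, so that p-values measure the spread between these samples.

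Marker-assisted backcrossing transfers a chosen chromosome segment from a donor into a recurrent parent. After repeated crosses to the parent most of the genome is the parent's again, apart from the selected segment and any donor stretches that were carried along with it or remained elsewhere by chance. Genes inside a donor stretch can differ between the line and its parent in both watering treatments, and such genes would be neighbours on a chromosome. A 1-colour array reads the RNA that binds to a fixed probe, and a lower level of a transcript and poorer binding of a different allele to the probe cannot be told apart. In RNA of whole roots, fewer cells of a type and less RNA per cell cannot be told apart either. Rice locus identifiers carry the chromosome and a number that increases along it (LOC_Os12g16290 lies on chromosome 12), and this number set the order of loci below. No coordinates and no gene descriptions were used for loci outside qDTY12.1, which are given by identifier alone.

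All levels are log2 of the processed array signal after quantile normalization, and values near 1.0 are the lowest that occur. A spot was well above background where the scanner software marked it so. This held for 51.1% to 59.9% of spots on 10 of the 11 arrays and for 31.6% on Vandana WW replicate 3. The array labelled Vandana WW replicate 2 was left out because it carried the IR64 pattern: of 389 probes that separated IR64 from the 5 other Vandana arrays by more than 2-fold, 382 were nearer to IR64 on it, against 7 to 21 on the arrays of 481-B. Arrays of the same line and treatment had a median correlation across probes of 0.952, and arrays of different lines in the same treatment 0.947. These are correlations across genes, which are not independent replicates. The root markers Lsi1, Lsi2 (silicon transporters) and RCc3 were well above background on 11 of 11 arrays.

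The line effect is the difference between 481-B and Vandana averaged over drought and WW plants, and it does not require a difference in both. It was fitted with limma on 52901 probes with treatment as a blocking factor, and a positive difference means a higher level in 481-B. The threshold of the study's methods, a change of over 2-fold with Bonferroni adjustment below 0.05, was passed by 1 probe (0.00189%). The same probe was the only one past the less strict threshold of more than 2-fold and a Benjamini-Hochberg (BH) adjusted p below 0.05 (0.00189%). At an unadjusted p below 0.05 there were 2719 probes, 5.14% of those tested. In the same fit the drought effect, with drought arrays set against WW arrays, had 1392 BH calls (2.63%) and 77 Bonferroni calls (0.146%).

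The called probe was that of LOC_Os03g17410, on chromosome 3 and not on the chromosome of qDTY12.1. Its level in 481-B was 5.44, 5.66 and 5.77 under drought and 5.76, 5.30 and 5.59 in WW roots. In Vandana it was 1.17, 1.53 and 1.56 under drought and 1.17 and 2.74 in WW replicates 1 and 3. The 6 arrays of 481-B thus lay close together and above all 5 arrays of Vandana, on none of which the spot was well above background. The means were 5.58 ± 0.19 (SD, n = 6) in 481-B and 1.63 ± 0.65 (SD, n = 5) in Vandana. The fitted difference was 3.93 (SE 0.27, 95% interval 3.32 to 4.54, BH-adjusted p = 0.00388 with limma). With the Vandana level replaced on each array by the lowest signal well above background there, the mean of 481-B was 9.13-fold higher. Between 1 array of each line in the same treatment on the same slide, the difference was 4.59 on slide 1 (WW), 4.09 on slide 2 (drought), and 4.23 (drought) and 2.85 (WW) on slide 3. With slide as a block it was 3.90, and its adjusted p rose to 0.273. The 11 arrays of IR64 and OsNAM_Event_2 read 5.05 to 6.75 for LOC_Os03g17410, in the range of 481-B. The array labelled Vandana WW replicate 2 read 5.68. With that array kept under its label the difference was 3.28, the adjusted p was 0.920, and the only call was LOC_Os03g20800 in its place.

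LOC_Os03g20800, also on chromosome 3, came next and missed the threshold (difference 2.31, SE 0.23, BH-adjusted p = 0.0547). Its level in 481-B was 3.41, 3.73 and 4.06 under drought and 2.43, 2.71 and 3.30 in WW roots, while all 5 Vandana arrays read 1.01 to 1.03. The lines did not overlap, and the drought arrays of 481-B were the only ones of the comparison well above background. The array labelled Vandana WW replicate 2 (1.01) and the 11 arrays of IR64 and OsNAM_Event_2 (1.01 to 1.08) stood at the Vandana level here, unlike at LOC_Os03g17410.

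With adjusted calls this few, loci were also ordered at a lenient threshold of more than 2-fold and an unadjusted p below 0.001, which was chosen after the values were seen and is a description only. In the comparison of 11 arrays 33 loci passed it (0.0624%), 16 higher and 17 lower in 481-B. Chromosome 12 held 10 of them and chromosome 3 held 7, while these chromosomes carry 7.06% and 10.2% of the probes. These counts depended on single arrays. On chromosome 12 the count was 2 without 481-B WW replicate 1 and 21 without 481-B WW replicate 3, and on chromosome 3 it was 4 without 481-B drought replicate 3 and 17 without 481-B WW replicate 3. With normexp background correction the counts were 0 and 1. The arrays of the lines did not overlap at 56 loci that were higher in 481-B (0.106%) and 121 that were lower (0.229%). Of those, 71 also differed by more than 2-fold (0.134% of all probes), with 12 on chromosome 3 and 4 on chromosome 12. Whether these counts exceed those of a random split of the arrays was not tested.

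The dependence of the line difference on treatment was asked with an interaction term. limma called 0 probes (smallest BH-adjusted p = 0.159), with 1562 probes at an unadjusted p below 0.05 (2.95%). Leaving out Vandana WW replicate 1 raised the interaction calls to 4536, and leaving out Vandana WW replicate 3 raised them to 45. The WW arm of Vandana then rests on 1 array, whose spread is taken from the other groups. Within drought, in the same fit of 11 arrays, 3 probes were called after BH adjustment (0.00567%), LOC_Os03g17410, LOC_Os03g20800 and LOC_Os11g21900. Within WW 1 probe was called (0.00189%), LOC_Os08g28050. Leaving out Vandana WW replicate 1 raised the WW count to 8761, and leaving out Vandana WW replicate 3 raised it to 88. Other single arrays ended the calls. Leaving out any of 6 single arrays (481-B drought replicates 2 and 3, 481-B WW replicates 1 and 2, Vandana drought replicates 1 and 2) brought the drought count to 0, and leaving out any of 7 (those 6 and 481-B drought replicate 1) brought the WW count to 0, so that LOC_Os11g21900 and LOC_Os08g28050 were then not called.

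LOC_Os11g21900 read 3.23, 3.08 and 3.16 in Vandana under drought and 1.14, 1.19 and 1.18 in 481-B under drought. In WW roots Vandana (1.20 and 1.26) and 481-B (1.14 to 1.21) were both near the lowest level. The drought roots of Vandana were thus the only group that stood apart, and the difference within drought was -1.99 (SE 0.13, BH-adjusted p = 0.00891). Only 1 of the 5 Vandana arrays was well above background for it. LOC_Os08g28050 had the reverse arrangement of treatments. Vandana read 4.88 and 4.09 in WW roots and 1.27 to 1.36 under drought, and 481-B read 1.24 to 1.37 on all 6 arrays. The difference within WW was -3.17 (SE 0.23, BH-adjusted p = 0.0172), and that within drought was 0.01. Only 1 of the 5 Vandana arrays was well above background for LOC_Os08g28050, and Vandana WW replicate 2 read 1.37.

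The order of loci was then searched for runs. A run was set as at least 6 BH-called loci with neighbours at most 60 loci apart among 52900 ordered loci. With 1 called locus no run could be formed. On chromosome 12 limma called 0 of 3736 loci after BH adjustment (221 at an unadjusted p below 0.05, 5.92%). The drought arrays alone, 3 against 3, gave 4 BH calls (0.00756%): LOC_Os12g16290, LOC_Os03g17410, LOC_Os03g16230 and LOC_Os03g45220. Of these, LOC_Os12g16290 and LOC_Os03g45220 also passed Bonferroni (0.00378%). The WW arrays alone, 3 against 2, gave 0 calls in limma, with 1737 probes at an unadjusted p below 0.05 and 17 loci past the lenient threshold (0.0321%). On the drought arrays 36 loci passed the lenient threshold (0.0681%), of which 11 lay on chromosome 3 and 10 on chromosome 12. The weakest of them was LOC_Os06g30980 (unadjusted p = 9.99e-04 with limma), and the first left outside was LOC_Os01g27240 (unadjusted p = 0.00101).

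**Figure D1:**
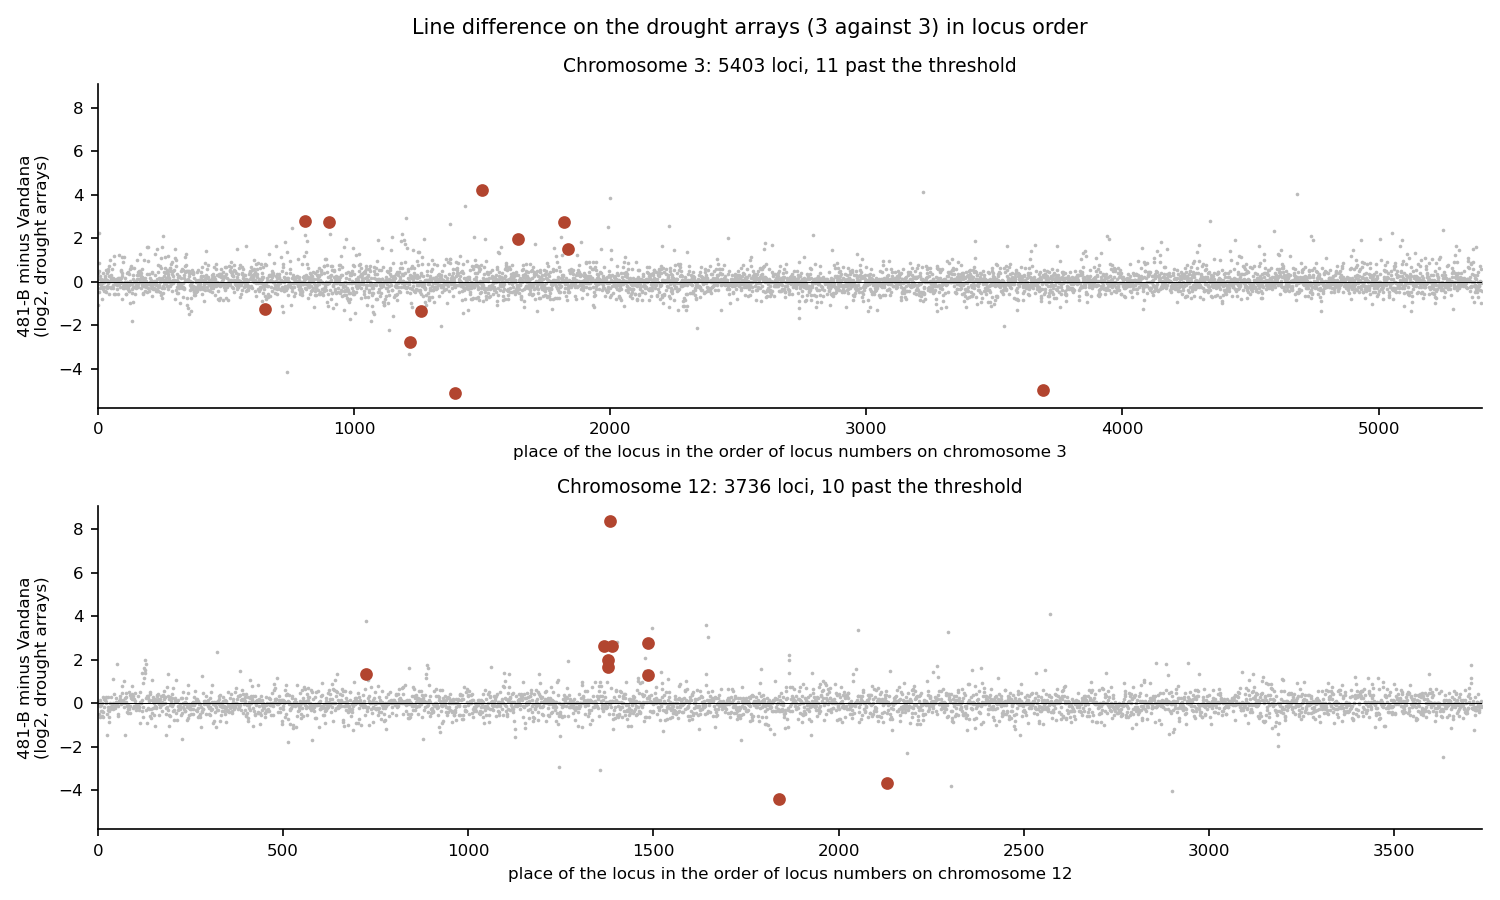
Line difference on the drought arrays (481-B minus Vandana, log2, 3 arrays against 3) for the 5403 loci of chromosome 3 (top) and the 3736 loci of chromosome 12 (bottom), placed by their rank in the order of locus numbers. Large points are the 11 and 10 loci past the lenient threshold: on chromosome 12, 5 of them stand together and all lie above 0, and on chromosome 3, 10 of the 11 lie in the first part of the order.

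On chromosome 12 the loci past the lenient threshold on the drought arrays came together at one place. From LOC_Os12g16130 to LOC_Os12g16360, 5 of 23 loci passed, all 5 higher in 481-B. A further pair, LOC_Os12g17480 and LOC_Os12g17490, stood close by. The only other chain of 3 or more such loci on the drought arrays lay on chromosome 11, which held 5 of the 36 loci and carries 7.43% of the probes. It ran from LOC_Os11g45120 to LOC_Os11g45840 (3 of 64 loci), with LOC_Os11g45120 higher in 481-B (1.25) and LOC_Os11g45260 (-1.19) and LOC_Os11g45840 (-1.46) lower. None of these 3 was well above background on a drought array of either line. Of 1052 windows of 50 loci, that from LOC_Os12g15920 to LOC_Os12g16470 held the most loci at more than 2-fold and an unadjusted p below 0.01: 5 on the drought arrays, where the mean was 0.183 per window, and 4 over the 11 arrays, where it was 0.211. The 119 loci from LOC_Os12g16130 to LOC_Os12g17490, a span whose ends were chosen for passing on these drought arrays, had a median difference of 0.03 under drought.

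LOC_Os12g16290 had the widest difference of the named loci. In 481-B it read 10.15, 9.83 and 9.89 under drought and 11.02 and 10.79 in WW replicates 1 and 2, but 2.17 in WW replicate 3. In Vandana it read 1.36, 1.43 and 1.91 under drought and 2.42 and 2.28 in WW roots, on no array well above background. 5 of the 6 arrays of 481-B were therefore far above every Vandana array, and 1 was among them. On the drought arrays the difference was 8.39 (SE 0.21, BH-adjusted p = 0.00316). Over all 11 arrays it was 7.17 with an SE of 1.47 (BH-adjusted p = 0.860, at least 90.5-fold), and without 481-B WW replicate 3 it was 8.46 (SE 0.16, BH-adjusted p = 1.26e-07). The 11 arrays of IR64 and OsNAM_Event_2 read 8.92 to 11.32 for LOC_Os12g16290, and the array labelled Vandana WW replicate 2 read 10.71.

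Its neighbours had smaller differences with the same arrangement of arrays. LOC_Os12g16240 read 11.72, 11.52 and 10.87 in 481-B under drought and 11.73, 11.30 and 8.40 in WW roots. Vandana read 9.43, 9.37 and 9.31 under drought and 9.0 and 8.44 in WW roots, so that only WW replicate 3 of 481-B fell to the Vandana level. LOC_Os12g16360 read 5.80, 5.73 and 5.79 in 481-B under drought against 4.04, 2.68 and 2.78 in Vandana, and 5.39, 6.42 and 3.37 in WW roots against 3.19 and 1.35. The differences on the drought arrays were 2.00 for LOC_Os12g16240, 2.61 for LOC_Os12g16360, 1.66 for LOC_Os12g16220 and 2.64 for LOC_Os12g16130, and none of the 4 passed the BH threshold there. At LOC_Os12g16480, some loci further along, 481-B read 4.74 to 5.16 under drought and 5.33, 4.49 and 2.97 in WW roots, and Vandana read 1.04 to 3.36. LOC_Os12g16290, LOC_Os12g16360 and LOC_Os12g16480 passed the lenient threshold over 11 arrays and made up the only chain of 3 or more such loci there (3 of 20 loci).

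Further along chromosome 12 the directions were mixed. From LOC_Os12g22420 to LOC_Os12g29690, 4 loci passed the lenient threshold over 11 arrays, LOC_Os12g22420 and LOC_Os12g22810 lower in 481-B and LOC_Os12g29340 and LOC_Os12g29690 higher. The 2 that passed on the drought arrays, LOC_Os12g22810 and LOC_Os12g26390, were both lower. LOC_Os12g22810 read 2.11, 1.20 and 1.09 in 481-B under drought against 6.59, 5.42 and 5.61 in Vandana. In WW roots 481-B read 1.87, 3.22 and 6.10 against 5.56 and 7.52. LOC_Os12g26390, inside the qDTY12.1 range, read 1.13, 1.07 and 1.09 against 4.70, 5.31 and 4.23 under drought, and 1.47, 1.06 and 4.03 against 4.19 and 2.22 in WW roots. At both loci the drought groups were wide apart, and WW replicate 3 of 481-B stood with Vandana. The difference over 11 arrays was -3.70 (SE 0.75) for LOC_Os12g22810 and -2.48 (SE 0.69) for LOC_Os12g26390, both with a BH-adjusted p of 0.860.

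Chromosome 3 had its loci more widely spaced, with higher and lower levels mixed. Of the 11 loci past the lenient threshold on the drought arrays, 6 were higher and 5 lower in 481-B. From LOC_Os03g10060 to LOC_Os03g20990 there were 9 among 1028 loci, beside 0.0681% over all probes. The ends of this span were chosen for passing on these same drought arrays. LOC_Os03g11030 read 4.19, 3.65 and 4.30 in 481-B under drought and 3.70, 3.35 and 1.04 in WW roots, against 1.02 to 1.58 on the 5 arrays of Vandana. It was called once 481-B WW replicate 3 was left out (difference 2.63, SE 0.19, BH-adjusted p = 0.00775). LOC_Os03g16230 was lower in 481-B, with 1.45, 1.54 and 1.77 under drought and 1.48, 2.18 and 5.15 in WW roots, against 7.12, 6.76 and 6.21 and then 5.25 and 3.73 in Vandana. On the drought arrays it differed by -5.11 (SE 0.27, BH-adjusted p = 0.0449).

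LOC_Os03g45220 lies apart from the others on chromosome 3. 481-B read 1.03, 1.01 and 1.01 for it under drought and 2.49, 1.01 and 6.02 in WW roots, and Vandana read 5.75, 6.38 and 5.92 under drought and 5.50 and 4.12 in WW roots. The drought groups did not overlap (difference -5.00, SE 0.20, BH-adjusted p = 0.0214), and WW replicate 3 of 481-B was above the WW arrays of Vandana. LOC_Os03g14334 read 1.19 to 1.27 on all 6 arrays of 481-B, never well above background. In Vandana it read 4.91, 3.69 and 3.45 under drought and 2.79 and 1.65 in WW roots, so that the lines did not overlap at any array. Its difference over 11 arrays was -1.97 (SE 0.40, BH-adjusted p = 0.860).

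LOC_Os03g10060 was well above background on 6 of 6 arrays of 481-B and 4 of 5 of Vandana. It read 8.0, 8.24 and 9.27 in 481-B under drought against 5.86, 5.95 and 5.37 in Vandana, and 7.71, 7.87 and 4.83 in WW roots against 5.07 and 3.77. All arrays of 481-B but WW replicate 3 were above every array of Vandana, and the difference was 2.61 (SE 0.56, BH-adjusted p = 0.860). LOC_Os03g18890 read 4.09, 4.0 and 4.27 in 481-B under drought and 4.16, 3.46 and 3.95 in WW roots, so that here WW replicate 3 stood with the rest of its line. Vandana read 2.08, 2.67 and 1.75 under drought and 3.57 and 1.21 in WW roots, and overlapped with 481-B through WW replicate 1. The difference at LOC_Os03g18890 was 1.73 (SE 0.39, BH-adjusted p = 0.860).

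**Figure D2:**
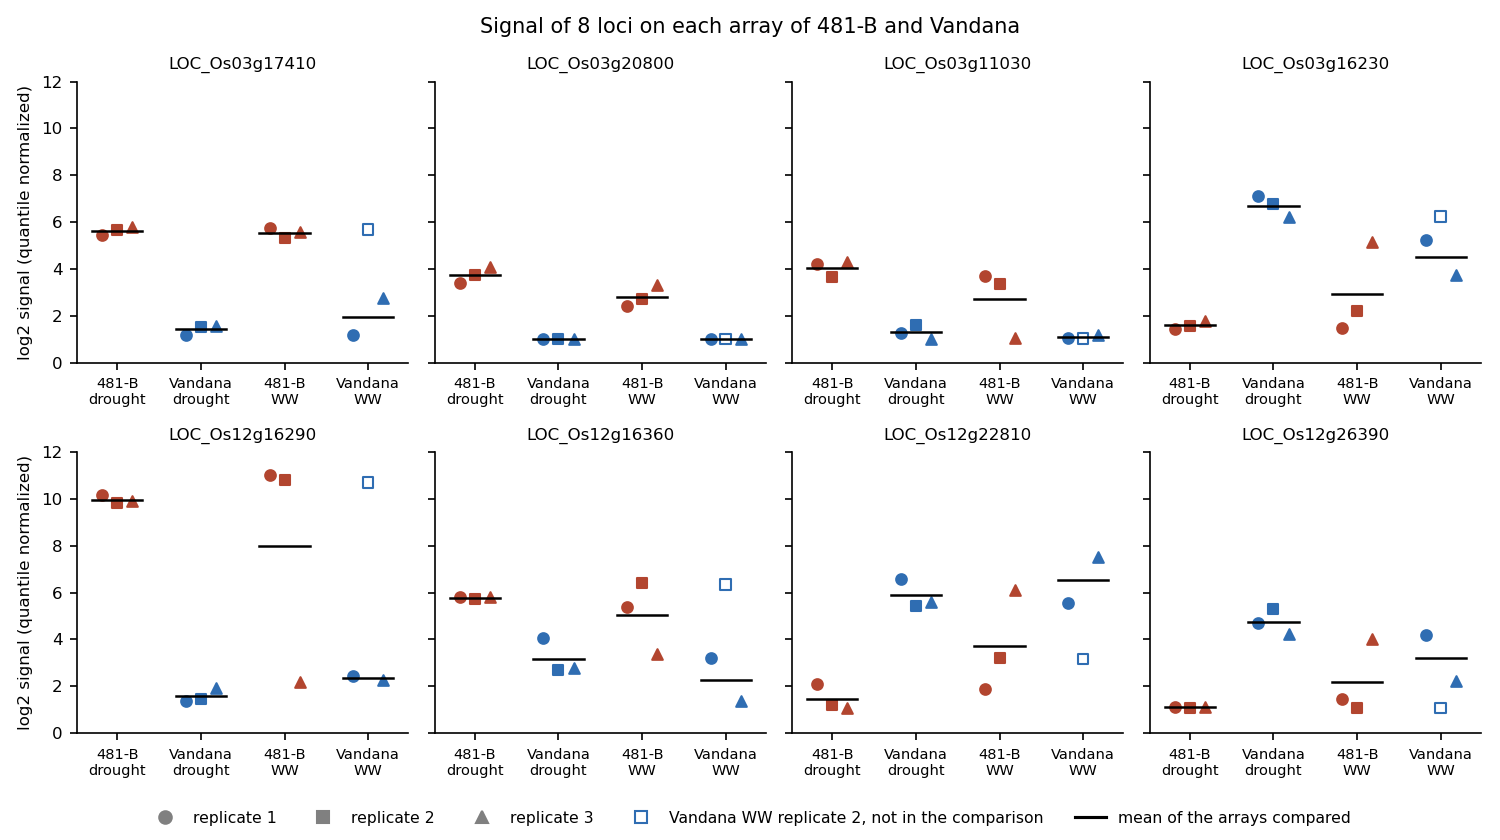
Log2 signal (quantile normalized) of 8 loci of chromosomes 3 and 12 on each array of 481-B (red) and Vandana (blue), by treatment; the marker shape is the replicate, the black line the mean of the arrays compared, and the open square the array labelled Vandana WW replicate 2, which was not compared. LOC_Os03g17410 and LOC_Os03g20800 keep the lines apart on all arrays compared, while the open square stands with 481-B at LOC_Os03g17410. At the other loci WW replicate 3 of 481-B (triangle) stands near Vandana, as at LOC_Os12g16290, where it reads 2.17 beside 11.02 and 10.79.

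The WW arrays took no part in choosing the 36 drought loci, so each was read on them. A position was set to 0 at the mean of Vandana and to 1 at the mean of 481-B under drought, and an array was called nearer to 481-B above 0.5. For the 10 loci of chromosome 12, 481-B WW replicates 1 and 2 were nearer to 481-B at 10 of 10 loci each (median position 1.07 and 1.05), and WW replicate 3 at 1 of 10 (median -0.01). Vandana WW replicate 1 was nearer to 481-B at 1 of 10 loci and Vandana WW replicate 3 at 4 of 10. In WW roots, 2 of the 3 arrays of 481-B thus kept the levels of 481-B under drought at these loci, and the third had those of Vandana at 9 of 10. The arrays of IR64 and OsNAM_Event_2 were nearer to 481-B at 8 or 9 of the 10 loci, and the array labelled Vandana WW replicate 2 at 9 of 10.

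For the 11 loci of chromosome 3, 481-B WW replicates 1, 2 and 3 were nearer to 481-B at 9, 10 and 6 loci. Vandana WW replicates 1 and 3 were so at 2 and 4 loci, and the arrays of IR64 and OsNAM_Event_2 at 1 to 5. On WW replicate 3 of 481-B these loci parted. It was nearer to the drought level of Vandana at LOC_Os03g10060, LOC_Os03g11030, LOC_Os03g14850, LOC_Os03g16230 and LOC_Os03g45220, and nearer to that of 481-B at LOC_Os03g07930, LOC_Os03g14334, LOC_Os03g17410, LOC_Os03g18890, LOC_Os03g20800 and LOC_Os03g20990. At LOC_Os03g07930 and LOC_Os03g20990 the other WW arrays did not keep their line's side: at the former 481-B WW replicates 1 and 2 had positions of 0.22 and 0.16 and Vandana WW replicate 3 one of 1.02, and at the latter 481-B WW replicate 1 had -0.14 and Vandana WW replicates 1 and 3 had 0.65 and 1.69. For the 15 loci of the other chromosomes, 481-B WW replicates 1, 2 and 3 were nearer to 481-B at 9, 9 and 10 loci, Vandana WW replicate 1 at 12 and Vandana WW replicate 3 at 6. The median difference in the direction seen under drought went from 2.62 to 1.22 in WW roots on chromosome 12, from 2.76 to 1.55 on chromosome 3, and from 1.33 to 0.06 on the other chromosomes. The drought medians are those of loci chosen for large drought differences on the same arrays, a choice that by itself tends to place them above the WW medians. Without 481-B WW replicate 3 the WW medians were 2.04, 1.55 and -0.04, and chromosome 12 was then above chromosome 3. Of the 15 other loci 9 were not well above background on any of the 11 arrays, against 2 of 11 on chromosome 3 and 0 of 10 on chromosome 12.

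**Figure D3:**
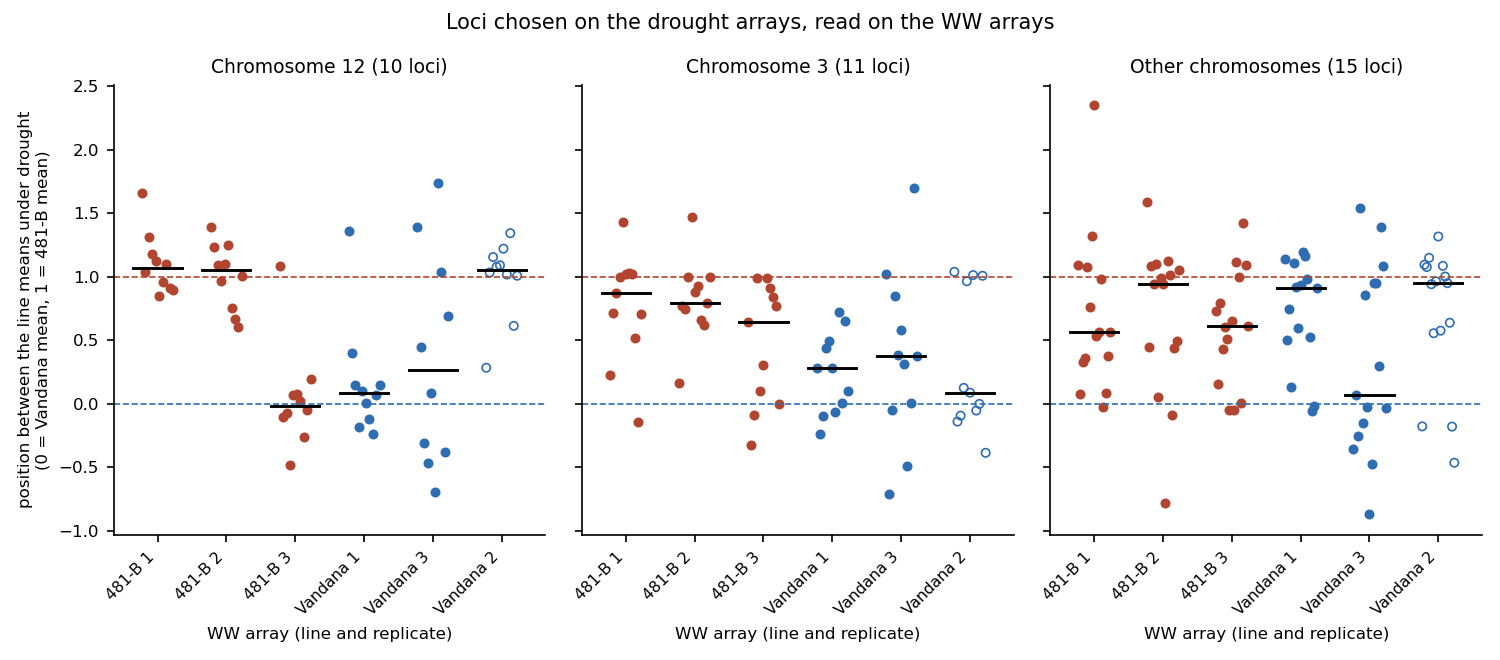
Position of each WW array between the line means under drought (0 is the Vandana mean, 1 the 481-B mean) for the loci chosen on the drought arrays: 10 of chromosome 12, 11 of chromosome 3 and 15 of the other chromosomes. Points are loci, black lines are medians over loci, and open circles are the array labelled Vandana WW replicate 2. On chromosome 12 the medians of 481-B WW replicates 1 and 2 are 1.07 and 1.05 and that of replicate 3 is -0.01.

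Without 481-B WW replicate 3, 3 probes were called after BH adjustment (0.00567%), LOC_Os03g11030, LOC_Os03g17410 and LOC_Os12g16290, all 3 also past Bonferroni. The lenient threshold was then passed by 53 loci (0.1%), 21 of them on chromosome 12 and 17 on chromosome 3. The chain on chromosome 12 grew to 6 of 35 loci from LOC_Os12g16130 to LOC_Os12g16480, all 6 higher in 481-B. Further chains appeared from LOC_Os12g28590 to LOC_Os12g29690 (4 of 91 loci, 3 higher and 1 lower) and from LOC_Os03g13640 to LOC_Os03g14990 (5 of 125 loci, 4 higher and 1 lower). Without Vandana WW replicate 3 as well, 6 probes were called after BH adjustment (0.0113%), with LOC_Os03g16230, LOC_Os03g45220 and LOC_Os12g26390 added, 2 passed Bonferroni (0.00378%) and 50 loci passed the lenient threshold (0.0945%). These arrays were left out after their values had been seen.

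The chain from LOC_Os12g28590 lies within the qDTY12.1 range and reaches just past it. LOC_Os12g28590 read 8.30, 6.33 and 5.48 in 481-B under drought and 8.11, 7.38 and 3.63 in WW roots, against 3.24, 3.01 and 3.98 and then 3.51 and 4.95 in Vandana. LOC_Os12g28710 was lower in 481-B, with 7.07, 5.89 and 4.27 under drought and 5.69, 5.56 and 10.95 in WW roots, against 11.36, 8.59 and 8.71 and then at least 10.78 in Vandana. Under drought the lines did not overlap at either locus, and WW replicate 3 of 481-B stood with Vandana at both. LOC_Os12g29690 read 3.61 to 4.14 in 481-B under drought and 3.57, 3.27 and 2.73 in WW roots, against 1.64 to 2.81 and then 2.38 and 1.13 in Vandana.

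The qDTY12.1 range, from LOC_Os12g26030 to LOC_Os12g29550, was measured by 273 loci. limma called 0 of them for the line effect, with 23 (8.42%) at an unadjusted p below 0.05, beside 5.14% of all probes. Of these 23, 10 were higher and 13 lower in 481-B, and the median difference over the range was -0.07, beside -0.02 over all probes. The study names 16 genes in the range, most with the ending of qDTY12.1 joined to the gene name, and 0 of 16 passed the test. At an unadjusted p below 0.05 there were 5, of which 4 were higher in 481-B and 1 lower.

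Among the regulators, OsNAM12.1 (LOC_Os12g29330), a NAC-type transcription factor, did not separate the lines. It read 7.51, 6.94 and 6.51 in 481-B under drought and 7.51, 7.19 and 7.79 in WW roots, against 5.82, 7.36 and 7.75 and then 7.48 and 8.02 in Vandana. The groups overlapped in both treatments. The difference averaged over treatments was -0.11 (95% interval -0.89 to 0.67), which leaves an average change of more than 2-fold outside it. It was 0.01 (SE 0.58) on the drought arrays alone and -0.26 (SE 0.31) on the WW arrays alone. With that SE a 2-fold change within drought could be missed. The study's qPCR of roots at heading had OsNAM12.1 in 481-B below both parents when well watered and above them under drought. OsARF12.1 (LOC_Os12g29520), an auxin response factor, read 5.11, 4.90 and 6.78 in 481-B under drought against 5.50, 4.12 and 4.74 in Vandana, and 4.32, 6.43 and 3.90 in WW roots against 3.75 and 1.48. Its arrays overlapped, with a difference of 1.46 (95% interval 0.01 to 2.90, BH-adjusted p = 0.860). OsAFC212.1 (LOC_Os12g27520), a LAMMER-type kinase of the kind that acts on splicing proteins, differed by 0.26 (95% interval -0.12 to 0.63).

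Among the enzymes and transporters, OsAH12.1 (LOC_Os12g28270), an amidohydrolase, read 8.48, 8.21 and 8.64 in 481-B under drought against 8.18, 8.05 and 7.40 in Vandana, and 8.39, 8.28 and 7.95 in WW roots against 7.84 and 6.91. The difference was 0.68 (SE 0.22), and 5 arrays of 481-B were above all arrays of Vandana, but the BH-adjusted p was 0.860. OsMtN312.1 (LOC_Os12g29220), of the sugar transporter class also called SWEET, differed by 0.51 (SE 0.21, BH-adjusted p = 0.860). OsGdpD12.1 (LOC_Os12g27102), of the glycerophosphodiester phosphodiesterase family, was the 1 lower in 481-B: 2.14, 2.44 and 2.46 under drought against 5.84, 4.19 and 3.86, and 1.19, 1.17 and 1.24 in WW roots against 2.63 and 1.20. The drought groups did not overlap, no array of 481-B was well above background, and the difference was -1.59 (SE 0.45, BH-adjusted p = 0.860).

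OsCESA1012.1 (LOC_Os12g29300), a cellulose synthase, was well above background on 1 of 6 arrays of 481-B and 0 of 5 arrays of Vandana. Its levels were 1.08 to 2.97 in 481-B and 1.07 to 1.72 in Vandana. The study reports that Vandana lacks this gene. OsPOLEI1912.1 (LOC_Os12g28770), a pollen Ole e I-like protein, read 6.46 to 8.54 in 481-B and 8.33 to 8.78 in Vandana under drought, and differed by -0.67 (95% interval -1.47 to 0.13). It was called for the drought effect in the same fit (-1.87, BH-adjusted p = 0.0260). OsGDP12.1 (LOC_Os12g29400), a GRAM domain protein, was also called for drought (2.62, BH-adjusted p = 0.00367), while its line difference was 0.42 (95% interval -0.31 to 1.15). Of the wall-associated kinases, to either of which the study's tables tie the name OsWAK12.1, LOC_Os12g29430 and LOC_Os12g29434 differed by 0.43 (95% interval -0.70 to 1.55) and -0.04 (95% interval -0.72 to 0.64), with signs that turned under other settings.

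OsEP112.1 (LOC_Os12g29340), an expressed protein of undescribed role, had the smallest unadjusted p of the 16 genes (5.92e-04 with limma, BH-adjusted p = 0.860). It read 7.95, 8.22 and 8.14 in 481-B under drought and 7.93, 7.96 and 7.12 in WW roots, against 7.25, 7.60 and 6.81 and then 6.54 and 6.23 in Vandana. All but WW replicate 3 of 481-B were above every Vandana array. The difference was 1.06 (SE 0.21), and without 481-B WW replicate 3 it was 1.16. IR64 read 7.89 to 8.61 for LOC_Os12g29340. The remaining named genes, OsCDP12.1 (LOC_Os12g26940), OsTFP12.1 (LOC_Os12g27254), OsDR12.1 (LOC_Os12g27830) and an AAA-type ATPase (LOC_Os12g28550), differed by -0.53, 0.56, -0.29 and 0.17, with 95% intervals that all hold 0.

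**Figure D4:**
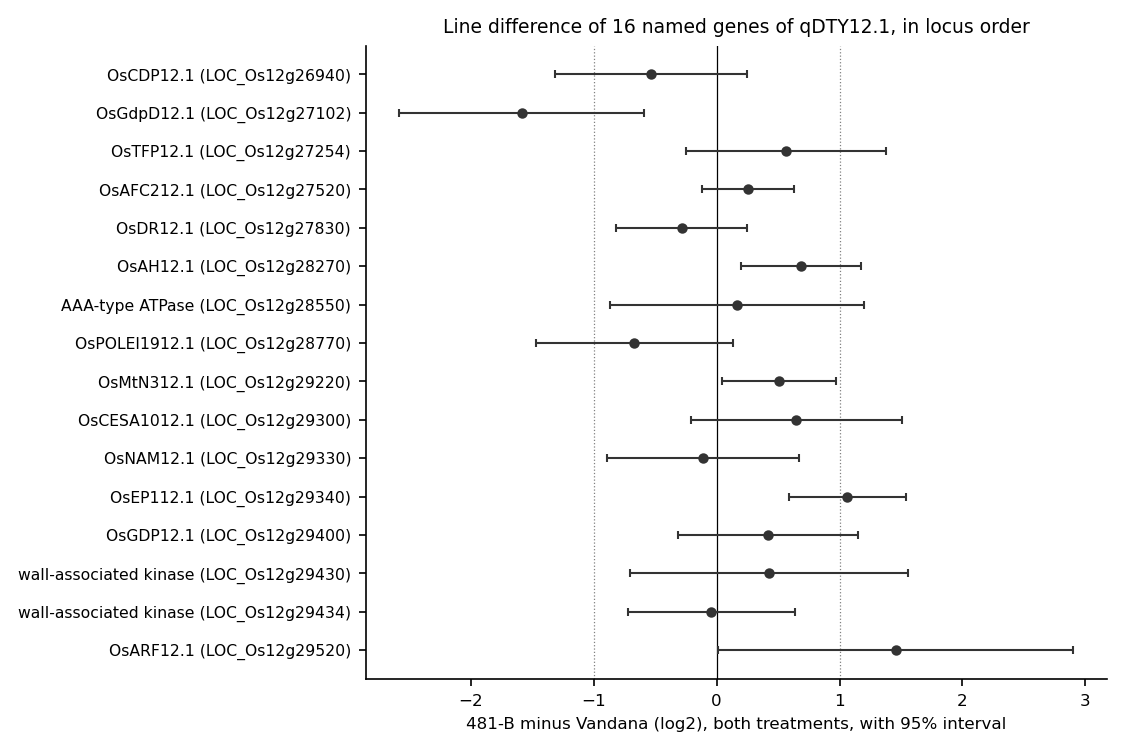
Line difference (481-B minus Vandana, log2, 6 against 5 arrays over both treatments) of the 16 genes that the study names in qDTY12.1, in locus order; points are limma estimates, bars 95% intervals, and dotted lines mark 2-fold. The intervals of OsGdpD12.1, OsAH12.1, OsMtN312.1, OsEP112.1 and OsARF12.1 leave out 0 without adjustment, and 0 of 16 passed after adjustment.

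Of the 23 other genes in the study's network of qDTY12.1 genes, 22 were matched to a probe by locus. These had 0 calls in limma and 0 with an unadjusted p below 0.05, with a median difference of -0.01 beside -0.02 over all probes. Of the loci that the study listed as down-regulated (394) or up-regulated (143) with OsNAM12.1, chosen on samples of this series, 0 were called, and 13 (3.30%) and 3 (2.10%) had an unadjusted p below 0.05, beside 5.14% of all probes. Their medians were 0.07 and 0.29. The treatments differed within this: the medians were -0.10 and -0.05 within drought, beside -0.01 over all probes, and 0.23 and 0.68 within WW, beside -0.03. Within WW 19 (4.82%) and 14 (9.79%) had an unadjusted p below 0.05, beside 6.38% of all probes, and 0 were called.

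Markers of green tissue varied widely between arrays. The summed signal of 5 such genes (2 RbcS genes for the small subunit of Rubisco, 2 for chlorophyll a-b binding proteins, and PsbO of photosystem II) lay on the log2 scale between 8.54 and 15.51 in 481-B and between 7.60 and 10.56 in Vandana under drought, and between 8.40 and 13.97 and between 8.15 and 8.25 in WW roots. All 5 were higher in 481-B, by 2.50 to 3.75, with a BH-adjusted p of 0.860 each. 4 of 11 arrays, all of 481-B, were above the highest Vandana array. The part of these transcripts in the line differences was not tested. WW replicate 3 of 481-B had a summed level of 8.40 and drought replicate 1 of 481-B one of 8.54, both within the range of Vandana. At LOC_Os12g16290, a locus named after its values were seen, the former stood at the Vandana level and the latter did not. Whether green tissue bears on that was not tested. The array labelled Vandana WW replicate 2, which was not compared, had 13.15.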

How the data were processed

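The authors labelled RNA with Cy3 and hybridised it to a custom Agilent array; Feature Extraction is given as version 11.0 in the submitters' processing notes and as 11.5.1.1 in the file headers. The processed signal was deposited as an intensity, background-subtracted and not normalized between arrays. The authors also deposited log2 values, quantile normalized and centred on each probe's median, which served as an alternative (correlation 0.99998 with the values used here once centred). Control and outlier spots were left out, replicate spots were averaged per probe as log2, and arrays were quantile normalized, 23 together (limma 3.58.1, R 4.3.3; python 3.11.15, numpy 2.4.6, pandas 2.3.3, matplotlib 3.10.9). lmFit and eBayes were fitted on line and treatment over 11 arrays (8 residual degrees of freedom), two-sided, and tested on simulated data. p-values were adjusted over all probes. Where a group had no spot well above background, a fold against the lowest such signal is given, as an estimate without its spread. The number of arrays limits the precision.

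Genes were named as the qDTY12.1 genes of the paper, then the called loci. The loci chosen on the drought arrays, and LOC_Os12g28590 and LOC_Os12g28710, were named after their values were seen. Members and lists were chosen with earlier results of these data known. Alternatives covered normalization, background (normexp, offset 50, on the median signal), probe filter, arrays, and blocks of slide or replicate.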

Additional observations from a re-analysis of the deposited data

Results flagged for a closer look

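Single arrays that stood far from the others of their line were looked for at 39 loci, with 80 tests in all including the share of spots above background. Dixon's gap test at the 95% level marked 18, of which 11 fell on 481-B WW replicate 3 and 4 on Vandana WW replicate 3. The chance rate of about 1 in 20 groups does not hold here: many loci were chosen on these data, and they share arrays. On 481-B WW replicate 3 the level was low at LOC_Os03g10060 (4.83, others from 7.71), LOC_Os03g11030 (1.04, others from 3.35), LOC_Os12g16130 (1.25, others from 3.99), LOC_Os12g16240 (8.40, others from 10.87), LOC_Os12g16290 (2.17, others from 9.83), LOC_Os12g16360 (3.37, others from 5.39), LOC_Os12g17490 (1.31, others from 2.50) and OsEP112.1 (LOC_Os12g29340; 7.12, others from 7.93). It was high at LOC_Os03g16230 (5.15, others up to 2.18), LOC_Os03g45220 (6.02, others up to 2.49) and LOC_Os12g26390 (4.03, others up to 1.47). Most of these loci were chosen because the drought arrays of the lines differed there. Of the 389 probes that separate IR64 from Vandana, 12 were nearer to IR64 on this array. The cause was not tested.

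Vandana WW replicate 3, the array with the lowest share of spots well above background (31.6%, others from 54.1%), was high at LOC_Os03g17410 (2.74, others up to 1.56), LOC_Os12g17480 (7.0, others up to 2.78) and LOC_Os12g17490 (2.98, others up to 1.78). LOC_Os03g14334 was lowest in 481-B drought replicate 1 (1.19, others from 1.25), LOC_Os03g20990 was lowest in 481-B WW replicate 1 (1.28, others from 2.66), and OsCESA1012.1 (LOC_Os12g29300) was highest in Vandana drought replicate 2 (1.72, others up to 1.23). These are near the lowest signal and were not well above background.

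In the array labelled Vandana WW replicate 2, which entered only alternative settings and the joint normalization, LOC_Os12g16290 read 10.71, against 1.36 to 2.42 on the 5 Vandana arrays compared.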

How the results depend on the processing

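Calls of the line effect over both treatments numbered 7 or fewer under each setting tried. In the order Bonferroni and BH, where the comparison of 11 arrays gave 1 and 1, the calls numbered 0 and 0 after a shift to the 75th percentile, with normexp, with slide as a block and on the WW arrays alone, 1 and 2 with quantile normalization over 11 arrays, 2 and 2 with the filter on dim probes (28729 probes), 2 and 3 with all 23 arrays in the fit, 4 and 7 with 22 arrays, 2 and 4 on the drought arrays alone, and 2 and 6 without both WW replicates 3. Leaving out each array gave 1 to 3 by either rule, with LOC_Os03g17410 called each time. Replicate number as a block gave 1 call, again LOC_Os03g17410 (3.95, BH-adjusted p = 0.0278). Same-numbered deviations correlated between -0.26 and 0.14, with too few arrays to show whether numbers pair the samples. The study grew plants in randomized complete blocks, and whether the numbers follow them is not stated. The 75th percentile shift moved the median of all probes to -0.25, and LOC_Os03g17410 then differed by 4.0 with an adjusted p of 0.170. With normexp it differed by 0.87, under 2-fold, with a BH-adjusted p of 8.74e-04 in limma. Over the alternatives its adjusted p lay between 1.20e-05 and 0.920, and that of LOC_Os12g16290 between 1.26e-07 and 0.993. Only 28729 of 52901 probes passed the dim filter, and low signal limits what the others can show.

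BH calls on chromosome 12 went from 0 to 1 on the drought arrays and 2 without both WW replicates 3, and from 0 to 1 over single arrays left out; in the qDTY12.1 range they went from 0 to 1 without both and stayed at 0 over single arrays. A run needs 6 called loci, so that it could be formed with 22 arrays (7 calls) and without both WW replicates 3 (6 calls) at most, and 0 were found there. Chains of 3 lenient loci numbered 1 over 11 arrays and 2 on the drought arrays. Loci past the lenient threshold went from 33 to 1 (normexp), 17 (dim filter), 21 (Vandana WW replicate 2 kept), 60 (22 arrays), 17 (WW alone) and 50 (without both), and to between 18 and 69 over single arrays. On chromosome 12 they went from 10 to 0, 6 and 4 for the first 3 of these, 4 with the slide block, 2 on the WW arrays and 19 without both, and to between 2 and 21. On chromosome 3 they went from 7 to 1 (normexp), 15 (22 arrays), 11 (drought alone), 1 (WW alone) and 17 (without both), and to between 4 and 17. Interaction calls went from 0 to 1 (23 arrays), 3 (22 arrays) and 26 (without both), and to between 0 and 4536. Calls within drought went from 3 to 0 with the percentile shift and normexp, and to between 0 and 4. Calls within WW went from 1 to 0 with those and with Vandana WW replicate 2 kept, to 7 with 22 arrays, and to between 0 and 8761.

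Signs turned at 9 named loci, whose differences over 11 arrays lay between -1.40 (LOC_Os08g28050) and 1.26 (LOC_Os12g17480). On the WW arrays alone LOC_Os03g07930 was 0.38, LOC_Os03g20990 -1.06, LOC_Os12g08760 -5.36e-04, LOC_Os12g17480 -0.64, LOC_Os12g28550 -0.20, LOC_Os12g29430 -0.94 and LOC_Os12g29434 0.24, and on the drought arrays alone LOC_Os08g28050 was 0.011 and LOC_Os12g29330 0.0091. With Vandana WW replicate 2 kept, or all 23 arrays, LOC_Os12g28550 was -0.31, LOC_Os12g29430 -0.054 and LOC_Os12g29434 0.091. LOC_Os12g28550 was -0.18 with the percentile shift, LOC_Os03g20990 -0.080 with normexp and LOC_Os12g29434 0.20 with the slide block. Over single arrays left out, LOC_Os12g28550 lay between -0.084 and 0.53, LOC_Os12g29434 between -0.19 and 0.13, and LOC_Os12g29330 between -0.41 and 0.068. The causes of these changes were not tested.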
